A study of Mus musculus with 9 samples.

Results

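The expression level of genes in C2C12 cells kept in growth medium was read from the 3 control siRNA arrays of a series of 9. C2C12 is an established line of mouse skeletal myoblasts, the mononucleate precursors of muscle fibres. All cells of the series grew in medium with 10% fetal bovine serum, and total RNA was taken 48 h after siRNA treatment and labelled from 100 ng per array. The control group received a control siRNA, so every value below comes from cells that went through a transfection. The other groups of the series received an siRNA against Cugbp1 (now Celf1) or Mbnl1, with 3 arrays each, and their arrays were not used. The line is 1 clonal source, and nothing in its labels tells if replicates were grown apart, so the spread between the 3 arrays may be technical. Of 22071 genes named by at least 1 probe set with a single gene symbol, 20005 had 3 or more such probe sets and are described here. The other 2066 genes are not described.

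Myoblasts descend from the myogenic lineage of the embryo and from the satellite cells of adult muscle. They are held in a committed but dividing state by MyoD and Myf5, transcription factors that specify the lineage, while growth factors in serum keep the cell cycle running. When serum is withdrawn, myogenin and MEF2 proteins switch on the contractile genes, and the cells leave the cycle and fuse into multinucleate myotubes.

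The arrays carry separate probe sets along the exons of a gene. The level of a gene is the median log2 intensity of its probe sets on an array, and ± gives the standard deviation over the 3 control arrays (n = 3) throughout. Levels of different genes depend on how well their probes bind, so they sort genes into classes and are not molecule counts. A background threshold was set on each array at the 95th percentile of the probe sets of odorant, pheromone and taste receptors, families that myoblasts are not known to use. It fell at log2 6.90, 6.95 and 6.90 (intensities of 119, 124 and 119). A gene whose median exceeded it on all 3 arrays is called above background. This held for 9098 of 20005 genes (45.5%). Of the 607 receptor genes 4 passed, which is no check, since their own probe sets set the threshold. In a second group of tissue-restricted families that did not set the threshold, such as defensins, prolactins, caseins and keratin-associated proteins, 8 of 111 genes passed. Those 8 included 4 keratin-associated proteins and 3 late cornified envelope proteins. The 95th percentile of this second group lay at 8.78, 8.80 and 8.74, and serves as a higher limit. It was exceeded on all 3 arrays by 3592 genes (18.0%) and by 1 of the 607 receptor genes. None of the 111 exceeded it, which is no check, since their own probe sets set this limit. The 5506 genes between both limits (27.5%) therefore have levels that a larger number of genes from silent families also reach.

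**Figure D1:**
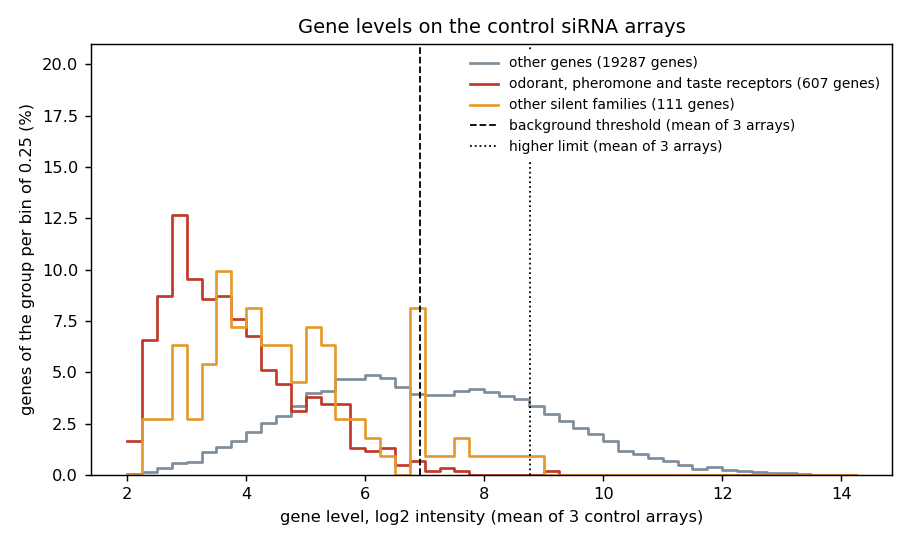
Share of genes (y axis, percent of each group per bin of 0.25) by mean level on the 3 control arrays (x axis, log2 intensity) for receptor genes, other silent families and all other genes, with both limits as vertical lines. Receptor genes have a median level of 3.60 and the other silent families one of 4.49, and the remaining genes spread from near the lowest values to log2 14.

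Genes above background were graded further. The strong class holds the genes at or beyond the 90th percentile of mean level, 2001 genes (10.0%) at log2 9.62 or more (intensity 786). The weak class holds 4549 genes above background but below the median of such genes, 8.54, and the moderate class the 2548 genes between. The median level was 10.33 in the strong class, 9.01 in the moderate class, 7.80 in the weak class and 5.51 among the 10907 genes not above background. A gene not above background is one whose median failed to exceed the threshold on at least 1 array, and 926 such genes exceeded it on some arrays only. Of the genes not above background, 3344 had no probe set above the threshold. A further 2338 had at least 25% of their probe sets above it, and no fewer than 3.

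The 3 arrays read nearly the same levels. Across genes, which are not independent replicates, Pearson's r between pairs of arrays was 0.989 to 0.990, and the median difference between a pair was 0.0953 to 0.108 on the log2 scale over genes above background. The median SD of a gene was 0.0661 in the strong class, 0.0872 in the moderate class, 0.106 in the weak class and 0.187 below background. A range over 0.5 between the 3 arrays was seen in 258 genes above background (2.84%), and over 1 in 6. The widest belonged to Tmsb10, an actin-binding thymosin, which read 9.63, 8.83 and 10.01 on arrays 1, 2 and 3 from only 3 probe sets. Array 2 was lowest for Tmsb10, and it was also lowest for Cd55, a complement inhibitor (8.75, 7.75 and 8.35), and for Asf1a, a histone chaperone (8.43, 7.45 and 8.06). Array 3 was lowest for Mrps34, a mitochondrial ribosomal protein (8.23, 7.93 and 7.22), and for Zfp68, a zinc finger protein (9.21, 8.94 and 8.20). The other 5 of the 10 widest are Gm5835, Gm7870, Gm7691, Gm6477 and S100a11-ps, all annotated as pseudogenes, whose probes may read the RNA of the parent gene.

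The 25 highest genes included 5 of the cytoskeleton, 3 of protein synthesis and 3 of energy supply. Tuba1b, an alpha-tubulin, stood highest at 14.05 ± 0.05, with Lgals1, the lectin galectin-1, at 14.02 ± 0.03. Actb, cytoplasmic beta-actin, read 13.90, 13.95 and 13.92. The spreads of Tuba1b and Lgals1 overlap, and Actb lay below both on each array. Vim, the intermediate filament of mesenchymal cells (13.65 ± 0.03), Cfl1, the actin-severing cofilin (13.10 ± 0.02), and Actg1, cytoplasmic gamma-actin (12.98 ± 0.01), complete the cytoskeletal members. Protein synthesis is present with the ribosomal protein Rpl39 (13.59 ± 0.11) and the elongation factors Eef2 (13.13 ± 0.08) and Eef1a1 (13.05 ± 0.16). Energy supply is present with Atp5b, the catalytic subunit of ATP synthase (13.41 ± 0.10), and with the mitochondrially encoded COX3 (13.21 ± 0.06) and COX2 (13.08 ± 0.02), subunits of cytochrome oxidase. The chaperones Hspa8 (13.45 ± 0.03) and Hsp90ab1 (13.16 ± 0.04) and the proteasome subunit Psmb3 (13.10 ± 0.01) handle protein folding and turnover. The lipid desaturase Scd2 reached 13.34 ± 0.02, the redox protein Txn1 13.26 ± 0.04, and the iron store Fth1 13.19 ± 0.02. Only 5 of the 8 probe sets of Fth1 were above the threshold, and their lower quartile over all 8 was 5.18, so its level is less certain than the array spread shows. Fn1, the matrix protein fibronectin (13.10 ± 0.03), is the only matrix gene among the 25, and each of its 57 probe sets was above the threshold. Cdk4, the kinase that pairs with D cyclins to drive entry into S phase, stood at 13.06 ± 0.04. The remaining genes were S100a11 (13.12 ± 0.09), Gnb1 (13.04 ± 0.06), B2m (13.01 ± 0.13), Emp1 (12.99 ± 0.08) and the pseudogene Gm5921 (13.02 ± 0.14). Tubulins, actins, ribosomal proteins and their pseudogenes have near-identical copies, so their probe sets may read one another's RNA.

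Gene families were set side by side with 65 lists that hold 1643 measured genes, 971 of them above background. Every measured member was above background in 3 lists: 39 of 39 mitosis genes, 37 of 37 DNA replication genes and 20 of 20 cholesterol genes. Fewer than 15% were above in 8 lists: sarcomere proteins, MHC and antigen presentation, the Hox B and Hox D clusters, and haematopoietic, endothelial, germ cell and liver, pancreas and gut markers. The highest medians belonged to heat shock proteins and chaperones (10.94), tubulins (10.52), actins and nonmuscle myosins (10.50) and translation factors (10.42). The median of all genes was 6.76, and 45.5% of all genes were above background, the share to set beside each count below.

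**Figure D2:**
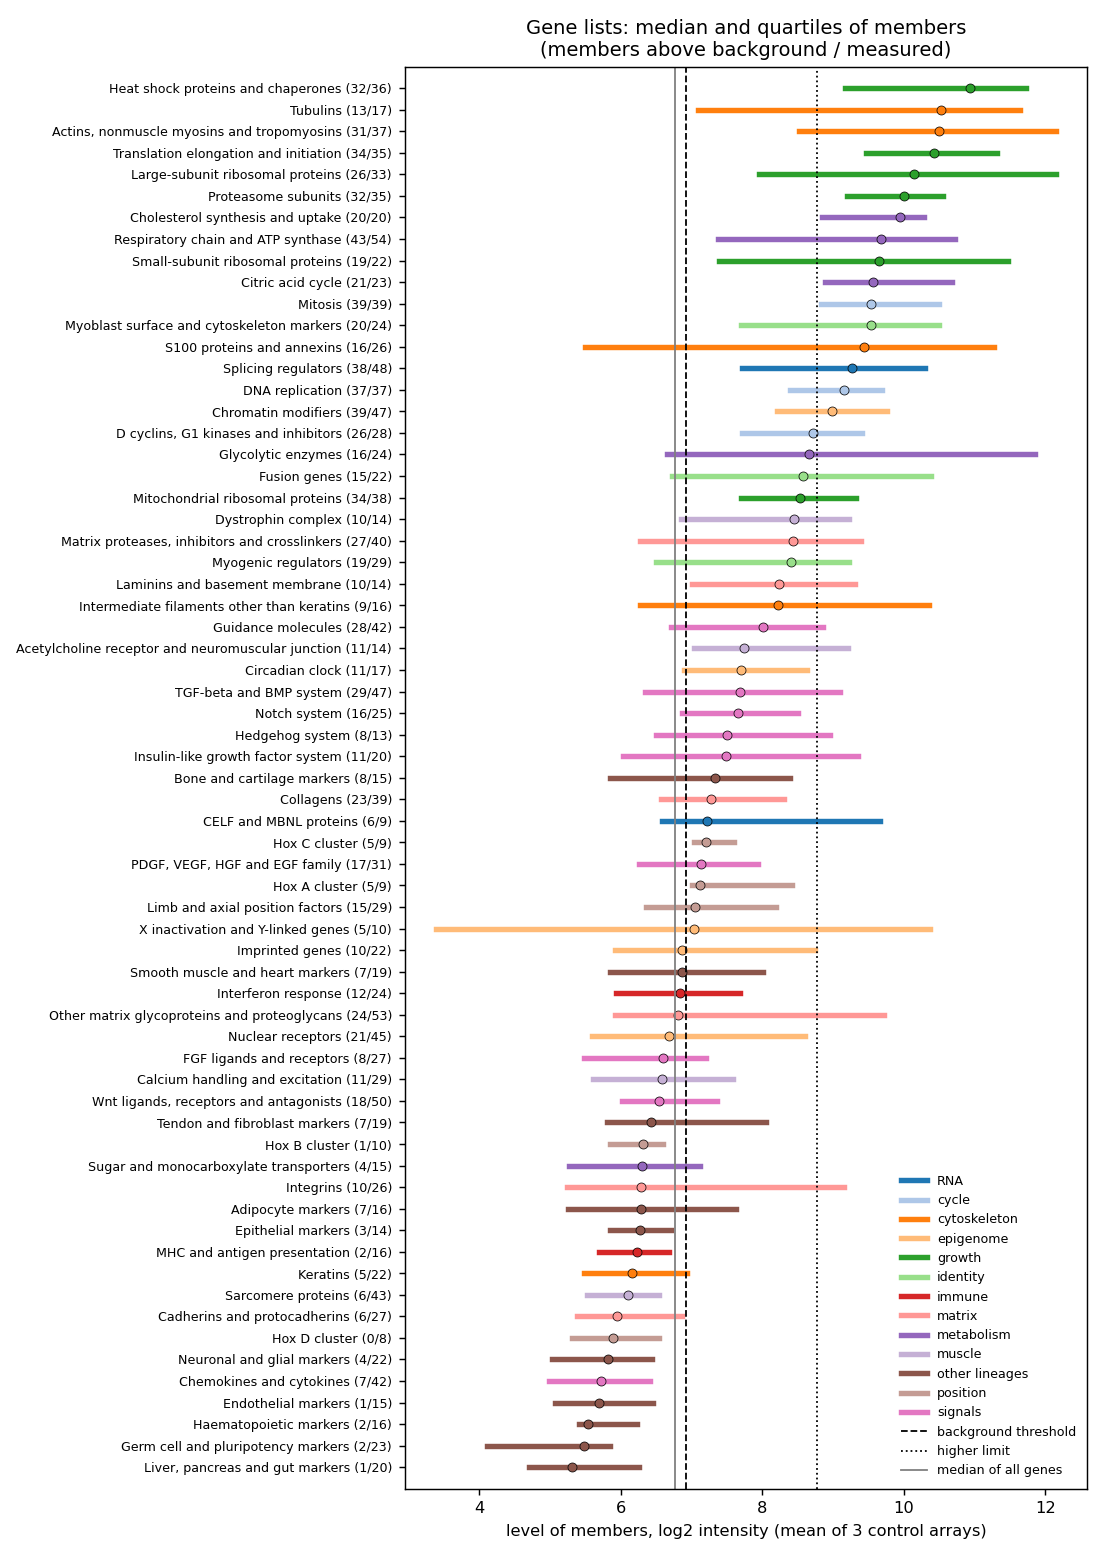
Median (points) and quartiles (bars) of the mean level of the members of 65 gene lists (x axis, log2 intensity on the 3 control arrays), with members above background over members measured beside each name. Heat shock proteins and chaperones have the highest median, 10.94, and liver, pancreas and gut markers the lowest, 5.31.

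Of 29 measured regulators of the myogenic lineage, 19 were above background and 11 above the higher limit. Myf5, a lineage-specifying factor, read 10.25, 10.14 and 10.21, and Myod1, the factor that commits cells to muscle, read 9.61, 9.72 and 9.71. Both were in the strong class and above background in each of their 7 probe sets. Snai2, a repressor that competes with MyoD for sites in dividing myoblasts, was the highest regulator (10.99, 11.15 and 11.14), followed by Myf5, Mef2a (10.07 ± 0.03) and Id2 (9.79 ± 0.05), an inhibitor of the MyoD family's partners. Pax7, the satellite cell factor, was weak at 7.22, 7.44 and 7.56, below the higher limit on all 3 arrays. Myog, which encodes myogenin and starts terminal differentiation, read 6.70, 6.37 and 6.41 and was below the threshold on each array, with 2 of its 4 probe sets above. The late factor Myf6 (6.49 ± 0.29), the embryonic factor Pax3 (5.08 ± 0.24) and Mstn, the secreted growth inhibitor myostatin (3.90 ± 0.42), were not above background either, with no probe set above for Myf6 or Mstn. Among the MEF2 partners of the MyoD family, Mef2a was strong while Mef2c read 6.26, 6.51 and 6.51, with 15 of 36 probe sets above.

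Surface and cytoskeletal markers of myoblasts were above background in 20 of 24 cases. Des, the muscle intermediate filament desmin, read 11.99, 11.86 and 11.92. Cdh15, the muscle cadherin, read 9.77, 9.65 and 9.62, and Itga7, the laminin receptor subunit of muscle, read 10.54, 10.48 and 10.63. The label of myoblast therefore has its markers Myod1, Myf5, Des, Cdh15, Itga7 and Chrna1 in the strong class, with Pax7, Chrng and Mymk in the weak class and Msc, a repressor of MyoD activity, not above background (6.76 ± 0.04). Itgb1 (11.18 ± 0.03), Fgfr1 (10.72 ± 0.09) and Dag1 (10.63 ± 0.17) were the next highest of the list. The 4 members not above background were Fgfr4 (6.82 ± 0.09), Cav3 (6.59 ± 0.08), Heyl (6.43 ± 0.11) and Calcr (5.36 ± 0.15), the receptor of quiescent satellite cells.

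Of 22 genes used in fusion, 15 were above background. The highest were the small GTPases Cdc42 (12.41 ± 0.15) and Rac1 (11.74 ± 0.03), the membrane repair protein Myof (11.25 ± 0.02), the adhesion molecule Jam2 (11.03 ± 0.14) and the receptor Neo1 (10.96 ± 0.13). The muscle-restricted fusion proteins were low. Mymk, myomaker, read 7.34, 7.06 and 7.59, above the threshold on each array and below the higher limit. Mymx, its partner myomixer, was not above background (6.15 ± 0.10), and neither were Elmo1 (5.00 ± 0.07) and Adgrb3 (4.07 ± 0.14).

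Genes of the contractile apparatus of differentiated muscle were mostly not above background. Only 6 of 43 measured sarcomere genes were above background, none was strong and the median was 6.10. Actn3, the alpha-actinin of fast fibres, was the highest (8.83, 9.07 and 8.78) and the only member above the higher limit. The other 5 were Ldb3, a Z-disc protein (8.02 ± 0.12), Acta1, skeletal alpha-actin (7.98 ± 0.06), Myl1, a light chain of fast myosin (7.86 ± 0.11), Actc1, cardiac alpha-actin (7.71 ± 0.10), and Tnnt2, cardiac troponin T (7.42 ± 0.22). Acta1 and Actc1 share much of their sequence with Actb, whose level is near the top, so their readings are uncertain. The 3 lowest were Myoz2 (4.41 ± 0.11), Smpx (4.56 ± 0.22) and Mybpc1 (4.65 ± 0.25). Ttn, the giant spring protein titin, read 6.95, 6.90 and 6.95 and failed the threshold on array 2 only, with 156 of 369 probe sets above. Tnnt3, fast troponin T, differed between arrays more than any other member, at 7.60, 7.38 and 6.29, and was above on arrays 1 and 2 only. Of the heavy chains, Myh3, the embryonic myosin, stood at 5.87 ± 0.17 and Myh4, of fast fibres, at 5.35 ± 0.21, and neither was above background.

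Of 29 measured genes of calcium handling and excitation 11 were above background, near the 45.5% of all genes, and 3 were strong. The strong ones were Atp2a2, the calcium pump of most cells (10.73 ± 0.09), Itpr3, an inositol trisphosphate receptor (10.58 ± 0.02), and Cacng1, the gamma subunit of the skeletal muscle calcium channel (10.02, 9.93 and 9.82). Cacng1 thus stood high while Cacna1s, which encodes the channel's pore (5.86 ± 0.13), and Ryr1, the release channel of skeletal muscle (6.62 ± 0.04), did not pass the threshold; these last were chosen after their values were seen. The 3 lowest were Sln (4.51 ± 0.31), Pln (4.72 ± 0.25), both regulators of the calcium pump, and Ryr3 (4.78 ± 0.05).

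Components of the neuromuscular junction were above background in 11 of 14 cases, 6 of them beyond the higher limit. Chrna1, the acetylcholine-binding subunit of the muscle receptor, read 12.21, 12.13 and 12.12, at the 99.4th percentile of all genes. Chrnb1 (9.77 ± 0.05) and Chrnd (9.26 ± 0.08) encode further subunits, Rapsn (9.09 ± 0.05) the clustering protein and Musk (8.88 ± 0.07) the receptor kinase of the synapse. Chrng, the fetal subunit, was weak (7.23, 7.11 and 7.32) and Chrne, its adult replacement, was not above background (5.57, 5.43 and 5.00). Ache, the enzyme that degrades acetylcholine, was low (5.45 ± 0.26). Lrp4 (7.76 ± 0.11), Agrn (7.71 ± 0.10), Dok7 (7.54 ± 0.17) and Colq (6.97 ± 0.07) were weak.

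Of 14 measured genes of the dystrophin complex, 10 were above background. Utrn, utrophin, read 9.60, 9.55 and 9.64, whereas Dmd, which encodes dystrophin, read 3.55, 3.62 and 3.41, with 2 of 101 probe sets above the threshold. The dystroglycan gene Dag1 was strong (10.63 ± 0.17), and the syntrophins Sntb2 (9.41 ± 0.08) and Sntb1 (9.29 ± 0.07) and the sarcoglycan Sgcb (9.03 ± 0.22) were moderate. Sgce, another sarcoglycan, was at 8.86 ± 0.30. Sgca (6.75 ± 0.08), Sgcd (6.47 ± 0.21) and Nos1 (6.28 ± 0.08) were not.

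During muscle differentiation several widely used proteins, and 1 fetal receptor subunit, give way to forms of mature muscle, and 23 of 25 such pairs had both forms measured. Replicates do not remove differences in probe affinity between the forms, so the values below describe readings and not amounts. The widely used form was above background in 22 pairs and the muscle form in 8. In 14 pairs the widely used form alone was above, so only a lower bound of the difference can be given, the widely used form's level minus the background threshold of each array. These bounds ran from 0.31 to 5.61 on the log2 scale. No pair had the muscle form alone above background. In 19 pairs the quartiles over probe sets of both forms did not overlap and the widely used form was higher. In 1 further pair, the enolases, they did not overlap and the muscle form was higher.

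The highest bounds belonged to Rpl3, a ribosomal protein with the muscle form Rpl3l (at least 5.61 ± 0.03), and to Slc2a1, the basal glucose transporter, over the insulin-responsive Slc2a4 (at least 5.40 ± 0.08). Pgam1 over Pgam2, glycolytic mutases, gave at least 5.04 ± 0.07, Cox6a1 over Cox6a2, subunits of cytochrome oxidase, at least 4.92 ± 0.08, and Myh9, nonmuscle myosin, over Myh4 at least 4.80 ± 0.01. Bounds between 3 and 5 were also found for the protease Capn2 over Capn3 (4.28 ± 0.07), Actn1 over Actn2 (4.18 ± 0.12), the calcium pump Atp2a2 over Atp2a1 (3.82 ± 0.07), the caveolin Cav1 over Cav3 (3.56 ± 0.06) and the light chain Myl12a over Mylpf (3.31 ± 0.06). The bound was at least 2.68 ± 0.08 for Utrn over Dmd, 2.42 ± 0.02 for the deaminase Ampd2 over Ampd1, 2.31 ± 0.04 for the phosphorylase Pygb over Pygm, and 0.31 ± 0.13 for the fetal receptor subunit Chrng over Chrne.

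Both forms were above background in 8 pairs, with the widely used form higher in 6. Actb exceeded Acta1 by 5.94 ± 0.08, Eef1a1 exceeded Eef1a2 by 5.76 ± 0.06 and Myl6 exceeded Myl1 by 4.71 ± 0.18. The filamin Flna exceeded Flnc by 1.72 ± 0.03, the hexokinase Hk1 exceeded Hk2 by 0.95 ± 0.10 and the creatine kinase Ckb exceeded Ckm by 0.45 ± 0.13. The order was opposite in 2 pairs. Eno3, the muscle enolase, read 12.12, 12.05 and 12.10 from 15 probe sets, and Eno1, the widely used enolase, read 8.10, 8.43 and 8.21 from 7 probe sets, a difference of -3.84 ± 0.20. Pfkp minus Pfkm, the phosphofructokinases, was -0.37 ± 0.09, with probe sets that overlap, and this order turned with other gene summaries (0.082 with the 75th percentile of the probe sets). With the mean of the probe sets, Hk1 minus Hk2 was -0.027 in place of 0.95. In the remaining pair, the fructose bisphosphatases Fbp1 and Fbp2, neither form was above background.

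**Figure D3:**
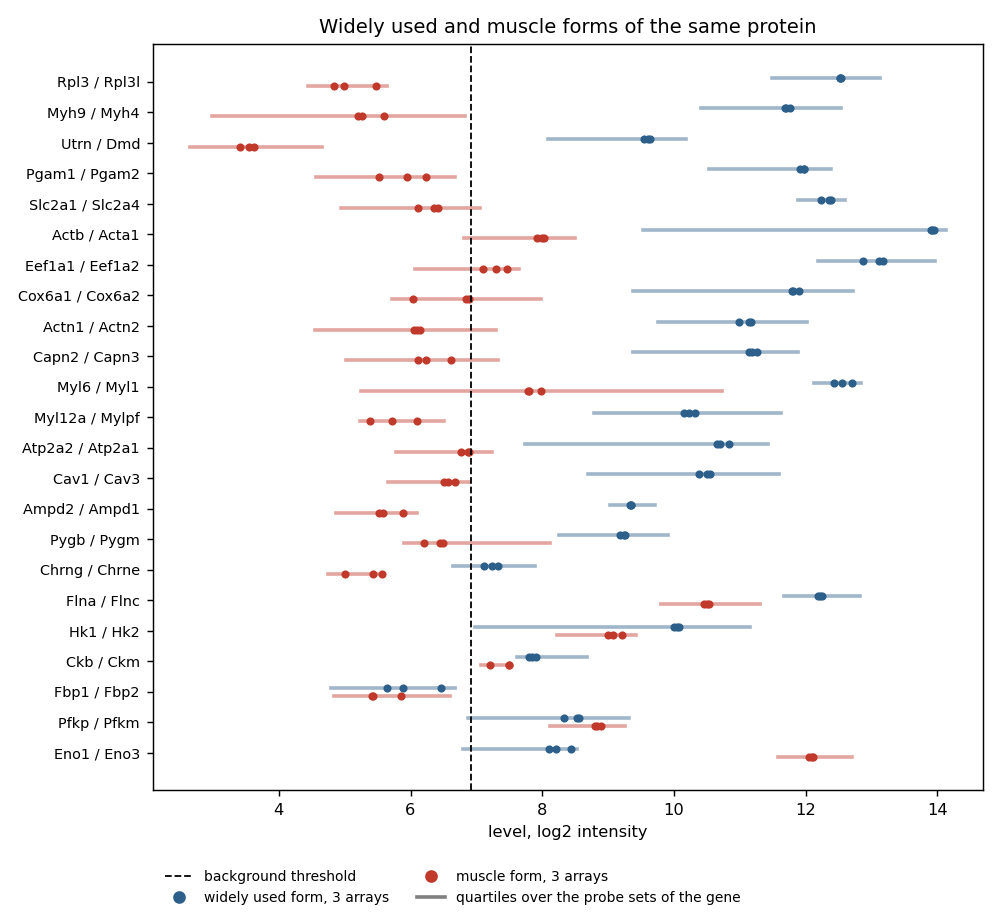
Levels on each of the 3 control arrays (points, log2 intensity on the x axis) for the widely used (blue) and muscle (red) form of 23 proteins, with pale bars for the quartiles over the probe sets of each gene. The widely used form is above the threshold in 22 pairs and the muscle form in 8, and Eno3 and Pfkm are the muscle forms that read higher.

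The proteins that the other groups of the series target were both strong in the control cells. Mbnl1, of the muscleblind family that switches splicing during muscle maturation, read 10.92, 11.20 and 10.97. Celf1, which opposes it on many transcripts and binds GU-rich RNA, read 9.59, 9.72 and 9.68. Mbnl2 (10.28 ± 0.13) was also strong and Mbnl3 (9.39 ± 0.16) moderate, so the 3 muscleblind genes were all beyond the higher limit. Of the other CELF genes, Celf4 (7.22 ± 0.03) and Celf2 (7.07 ± 0.15) were weak, and Celf5 (6.58 ± 0.11), Celf3 (6.28 ± 0.14) and Celf6 (5.99 ± 0.16) were not above background. Among 48 splicing regulators, 38 were above background and 21 strong. Hnrnpk (12.20 ± 0.01), Hnrnpa3 (11.91 ± 0.06), Ptbp1 (11.84 ± 0.05), the splicing repressor of nonneuronal cells, Prpf8 (11.52 ± 0.05) and Ptbp3 (11.52 ± 0.08) were the highest. The 3 lowest were neuronal or epithelial regulators: Elavl2 (4.53 ± 0.18), Nova1 (4.54 ± 0.23) and Esrp1 (4.61 ± 0.20), the last with none of 25 probe sets above.

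Genes of protein synthesis were above background in most cases. Of 35 initiation and elongation factors 34 passed and 25 were strong, with Eif2s2 (6.72 ± 0.28) the exception. Eef2, Eef1a1, Pabpc1 (12.83 ± 0.11), the poly(A)-binding protein, Eif4a1 (12.76 ± 0.07), the initiation helicase, and Eif3h (12.04 ± 0.05) led the list. Of 33 large-subunit ribosomal proteins 26 passed and 20 were strong, and of 22 small-subunit proteins 19 passed and 11 were strong. Rpl39, Rplp0 (12.79 ± 0.03), Rpl41 (12.73 ± 0.02), Rps20 (12.81 ± 0.05) and Rps2 (12.37 ± 0.06) were the highest of a family that spread widely. Rpl39l (3.27 ± 0.28) and Rpl3l (5.10 ± 0.34), tissue-restricted paralogues, were among the lowest, but so were Rpl35a (3.58 ± 0.25, 4 probe sets) and Rps27 (5.33 ± 0.44, 3 probe sets), which every ribosome uses. Rps19 (6.72 ± 0.25) and Rps18 (6.86 ± 0.16) were not above background either. A low median over few probe sets was therefore not read as silence. A further 18 large-subunit and 12 small-subunit ribosomal genes had fewer than 3 probe sets with a single symbol and were not measured. Mitochondrial ribosomal proteins passed in 34 of 38 cases, led by Mrps6 (11.19 ± 0.03).

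Protein folding and turnover were equally well represented. Of 36 heat shock proteins and chaperones 32 were above background and 26 strong, and after Hspa8 and Hsp90ab1 the highest were Hspb1 (12.26 ± 0.04), Hsp90b1 (12.08 ± 0.10) and the chaperonin subunit Cct2 (11.93 ± 0.06). The 4 not above background were Cryaa, the lens crystallin (6.30 ± 0.22), Hspb7 (6.15 ± 0.13), the stress-induced Hspa1a (5.63 ± 0.14) and Hspb3 (4.82 ± 0.44). Proteasome subunits passed in 32 of 35 cases, led by Psmb3, Psmb5 (12.42 ± 0.04) and Psmd2 (11.56 ± 0.08). The exceptions were Psmb9 (5.22, 5.48 and 5.16) and Psmb8 (5.24, 5.19 and 5.20), interferon-induced subunits of the immunoproteasome, and Psma8 (4.18 ± 0.32), a testis subunit. No array had any of these 3 above the threshold.

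In glycolysis, 16 of 24 enzymes were above background and 10 strong. Ldha (12.77 ± 0.07), which makes lactate, Pkm (12.64, 12.62 and 12.64), which makes pyruvate, Pgk1 (12.41 ± 0.09), Eno3 and the isomerase Tpi1 were the highest. Pgk2 (4.67 ± 0.17) and Ldhc (4.53 ± 0.32), forms of the testis, were the lowest, with no probe set above, and Pgam2 (5.90 ± 0.36) was next. Gapdh had fewer than 3 probe sets with a single symbol and was not measured. Only 4 of 15 sugar and monocarboxylate transporters were above background. Slc2a1 read 12.23, 12.36 and 12.38, and the lactate carrier Slc16a1 was strong too (10.99 ± 0.04). Slc2a8 (7.65 ± 0.10) and Slc16a3 (7.40 ± 0.18) were weak. Slc2a4, the transporter of mature muscle and fat, read 6.12, 6.35 and 6.42. Slc2a3 (5.19 ± 0.06), Slc5a1 (5.13 ± 0.07) and Slc16a7 (4.42 ± 0.33) were the lowest.

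Mitochondrial energy metabolism was above background in 21 of 23 genes of the citric acid cycle and 43 of 54 of the respiratory chain. Cs, citrate synthase (11.92 ± 0.05), Ogdh (11.46 ± 0.03), Mdh2 (11.42 ± 0.20), Idh3b (11.05 ± 0.07) and Idh3g (10.94 ± 0.10) led the cycle, and Me3 (5.93 ± 0.16) and Pdha2, a testis form (4.82 ± 0.36), were its only members not above. In the chain, Atp5d (12.94 ± 0.07), Atp5g3 (12.21 ± 0.12), Cox7b (12.14 ± 0.14) and Cox8a (11.86 ± 0.13) followed Atp5b among the nuclear-encoded genes, to which the list is limited. The lowest were Cyct (3.61 ± 0.18) and Cox8c (4.85 ± 0.39), forms of the testis, and Ndufa1 (5.71 ± 0.32), a subunit of complex I in all tissues that had 3 probe sets. All 20 measured genes of cholesterol synthesis and uptake were above background, 12 of them strong. Nsdhl (11.19 ± 0.04), the oxygenating enzyme Sqle, Srebf2, the transcription factor of the pathway (10.93 ± 0.04), Fdft1 (10.71 ± 0.01) and Sc5d (10.49 ± 0.08) were the highest, and Pmvk, Tm7sf2 (8.03 ± 0.14) and Mvd (8.37 ± 0.06) the lowest.

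Genes of DNA replication and mitosis were above background without exception. All 37 measured DNA replication genes passed the threshold and 20 the higher limit. Pcna, the sliding clamp of the replication fork, read 12.56, 12.39 and 12.49. Rrm1 (10.92 ± 0.10), Mcm2 (10.50 ± 0.03), Pold2 (10.31 ± 0.11) and Uhrf1 (10.19 ± 0.07) followed, and Gins1 (7.56 ± 0.17) and Pola1 (7.80 ± 0.19) were the lowest. All 39 mitosis genes passed and 18 were strong, and even the lowest, the spindle kinase Ttk, stood at 8.10 ± 0.08. Ccna2, cyclin A, read 11.65, 11.67 and 11.66. Cdk1 (11.43 ± 0.03), the mitotic kinase, Mki67 (11.04 ± 0.06), a marker of cycling cells, the scaffold Anln (11.01 ± 0.02) and Cks1b, a partner of the kinase, came next. Of 28 genes of the decision to divide, 26 were above background. Cdk4 and Ccnd1, cyclin D1 (11.64 ± 0.05), were strong, but so was the inhibitor Cdkn1a (11.63, 11.61 and 11.60), which encodes p21 and also rises when myoblasts leave the cycle, and the p53 antagonist Mdm2 (10.30 ± 0.04). Cdkn2b (6.92 ± 0.17) and E2f5 (6.74 ± 0.20) were not above, and Cdkn2d (7.23 ± 0.21) was the lowest of those that were.

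Cytoskeletal genes were among the highest. Of 37 actins, nonmuscle myosins and tropomyosins, 31 were above background and 24 strong. After Actb, Cfl1 and Actg1 the highest were Acta2, smooth muscle alpha-actin (12.73, 12.67 and 12.79), and Pfn1, profilin (12.60 ± 0.04). The smooth muscle proteins Myh11 (6.11 ± 0.25), Mylk (6.38 ± 0.03) and Cnn1 (6.95 ± 0.21) were not above background, nor were Myl6b (6.46 ± 0.15), Tagln3 (6.32 ± 0.30) and Pfn2 (5.85 ± 0.07). Tubulins passed in 13 of 17 cases, with Tubb5 (12.71 ± 0.06), Tuba1a (12.48 ± 0.07), Tuba1c (12.13 ± 0.04) and Tubg1 (11.65 ± 0.08) after Tuba1b. Tubd1 (6.53 ± 0.17), Tubb4a (6.40 ± 0.10), the platelet form Tubb1 and Tuba8 (5.71 ± 0.64) did not. Among 16 intermediate filaments other than keratins, Vim, Des, Nefl (11.62, 11.23 and 11.44), Lmna (11.30 ± 0.07) and Nes (10.05 ± 0.11) were strong. Nefl encodes the light neurofilament chain, while the heavy chain Nefh was not above background (6.42 ± 0.34) and the medium chain Nefm was at 8.70 ± 0.19. No keratin of 22 exceeded the higher limit on all 3 arrays and 5 exceeded the threshold on all 3, Krt80 (8.94 ± 0.13, above the higher limit on arrays 1 and 3), Krt14 (8.09 ± 0.12), Krt19 (7.63 ± 0.08), Krt8 (7.06 ± 0.06) and Krt13 (7.01 ± 0.07).

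Calcium-binding S100 proteins and annexins divided sharply. Of 26, 16 were above background and all 16 exceeded the higher limit, while the other 10 were at 6.98 or lower. S100a11, S100a4 (12.21 ± 0.07), Anxa2 (12.07 ± 0.11), S100a6 (11.85 ± 0.07) and Anxa5 (11.82 ± 0.07) were the highest. Anxa10 (3.51 ± 0.23), S100a8 (4.52 ± 0.48), a protein of granulocytes, and S100a14 (4.78 ± 0.20), of epithelia, were the lowest.

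Matrix genes ranged from the top of the distribution to background. Of 53 glycoproteins and proteoglycans, 24 were above background (45.3%, near the 45.5% of all genes) and 14 strong. Spp1, osteopontin, read 12.83, 12.73 and 12.62, Sparc stood at 12.51 ± 0.09, and Thbs1 (11.41 ± 0.05) and Thbs2 (11.18 ± 0.02), the thrombospondins, followed after Fn1. Lum (3.83 ± 0.57), Ibsp (4.46 ± 0.21) and Fmod (5.09 ± 0.54) were the lowest. Basement membrane genes passed in 10 of 14 cases. Nid1, the laminin-binding nidogen (12.46, 12.39 and 12.41), Hspg2, perlecan (10.48 ± 0.03), Lamb1 (9.52 ± 0.05), Lama5 (9.32 ± 0.02) and Lamc1 (9.28 ± 0.05) were the highest. Lamc3 (6.76 ± 0.02), Lama1 (5.97 ± 0.10), Lama3 (5.75 ± 0.07) and Lama4 (5.14 ± 0.08) were not above. Collagens stood lower, with 23 of 39 above background, 5 beyond the higher limit and 1 strong. Col1a2 (9.71 ± 0.09), Col3a1 (9.37 ± 0.07), Col6a3 (9.35 ± 0.08), Col12a1 (9.16 ± 0.09) and Col6a1 (9.15 ± 0.14) were the highest, and Col14a1 (4.94 ± 0.05) and Col19a1 (5.60 ± 0.15) the lowest.

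Matrix enzymes and their inhibitors passed in 27 of 40 cases. The inhibitors Timp2 (12.44 ± 0.03), Timp1 (12.35 ± 0.19) and Timp3 (10.34 ± 0.08) stood high, with Adam9 (10.97 ± 0.08) and the collagen hydroxylase Plod1 (9.94 ± 0.07). Mmp8 (3.63 ± 0.12), Mmp16 (4.51 ± 0.28) and Mmp13 (5.02 ± 0.31) were the lowest. Of 26 integrins, 10 were above background: the fibronectin receptor Itga5 (11.27 ± 0.02) with Itgb1, Itga7, Itgav (9.89 ± 0.15) and Itga3 (9.48 ± 0.04) led, and Itga4 (4.13 ± 0.27), Itga1 (4.37 ± 0.21) and Itga8 (4.79 ± 0.11) were lowest. Cadherins and protocadherins passed in 6 of 27 cases. These were Cdh15, Cdh2 (9.39 ± 0.14), Pcdh19 (9.34 ± 0.12), Pcdh7 (8.69 ± 0.05), Cdh18 (8.55 ± 0.10) and Cdh13 (8.26 ± 0.06), and the lowest was Cdh19 (2.97 ± 0.08).

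Growth factor systems were above background in part. Of 27 FGF ligands and receptors 8 were above background, and the only strong one was the receptor Fgfr1. The highest ligands, Fgf8 (7.89 ± 0.16), Fgf7 (7.62 ± 0.17) and Fgf4 (7.39 ± 0.05), stayed below the higher limit, and Fgf12 (4.54 ± 0.28), Fgf13 (4.54 ± 0.19) and Fgf21 (5.03 ± 0.15) were lowest. In the insulin-like growth factor system 11 of 20 genes passed (55%, beside 45.5% of all genes). The binding proteins Igfbp5 (12.57, 12.54 and 12.57), Igfbp7 (11.50 ± 0.10) and Igfbp2 (10.57 ± 0.07) and the adaptor Irs1 (10.20 ± 0.11) were strong. The ligand Igf2 read 6.72, 6.68 and 6.72, below the threshold on each array, and Igfals (5.12 ± 0.21), Ins2 (5.34 ± 0.18) and Igf1 (5.57 ± 0.21) were lowest. In the PDGF, VEGF, HGF and EGF families 17 of 31 passed (54.8%, beside 45.5% of all genes). They were led by Vegfb (10.89 ± 0.09), Met, the receptor of hepatocyte growth factor (9.79 ± 0.04), Pdgfa (9.75 ± 0.08), Vegfa (9.57 ± 0.24) and Pdgfrb (9.22 ± 0.11).

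In the TGF-beta and BMP system 29 of 47 genes were above background. Bmp1, a procollagen protease (10.61 ± 0.03), Fstl1 (10.31 ± 0.09), the ligand Tgfb1 (10.11 ± 0.01), the BMP antagonist Grem1 (10.09 ± 0.04) and the shared mediator Smad4 (9.89 ± 0.07) were the highest. Mstn, Fst (5.05 ± 0.29), the antagonist of myostatin, and Bmpr1b (5.09 ± 0.24) were the lowest. Of 50 Wnt ligands, receptors and antagonists 18 passed, 6 of them beyond the higher limit. The mediator Ctnnb1 (11.76 ± 0.03), the receptors Ryk (9.73 ± 0.25), Lrp5 (9.35 ± 0.05) and Fzd2 (8.97 ± 0.05), and the scaffold Axin1 (9.23 ± 0.10) were the highest. Notch genes passed in 16 of 25 cases, with the receptor Notch2 (10.24 ± 0.12) alone in the strong class and Hey2 (5.61 ± 0.10) lowest. Of 13 Hedgehog genes 8 passed: Smo, the signal transducer (10.42 ± 0.12), Gas1 (9.65 ± 0.08), Cdon (9.38 ± 0.07), Gli3 (8.95 ± 0.07), Sufu (8.63 ± 0.07), Hhip (8.34 ± 0.08), Ptch1 (7.50 ± 0.14) and Ihh (7.44 ± 0.15). The pathway's targets and effectors Gli1 (6.48 ± 0.08) and Gli2 (5.89 ± 0.12) were not above, nor was the ligand Shh (6.26 ± 0.18). Guidance molecules passed in 28 of 42 cases, led by the semaphorin receptors Plxnb2 (11.16 ± 0.06) and Plxna1 (11.06 ± 0.07) and by Epha2 (10.57 ± 0.09).

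Chemokines, cytokines and genes of antigen presentation were mostly at background. Of 42 chemokines and cytokines 7 were above it, and 3 were strong: Ccl7 (10.28 ± 0.09) and Ccl2 (10.07, 10.11 and 10.15), which attract monocytes, and Csf1, the growth factor of macrophages (10.00 ± 0.10). The 3 strong genes stand apart from the next, Tnfsf11 (8.43 ± 0.25). Il6 read 2.94, 2.87 and 2.99, the lowest of the list, near Il10 (3.33 ± 0.19) and Il1a (3.69 ± 0.34). Of 16 genes of antigen presentation only B2m (12.91, 13.15 and 12.96), the light chain of class I molecules, and Tapbp, tapasin (10.19 ± 0.12), were above background. The class I heavy chain H2-K1 read 7.16, 6.89 and 7.20, above the threshold on arrays 1 and 3 but not on array 2, with 8 of 16 probe sets above. Its sequence resembles that of other heavy chains, so its reading is uncertain. The peptide transporters Tap1 (5.77 ± 0.06) and Tap2 (6.63 ± 0.07) were not above. In the interferon response 12 of 24 genes passed (50%, near the 45.5% of all genes). The receptors Ifngr2 (10.39 ± 0.02), Ifnar2 (8.81 ± 0.15), Ifnar1 (8.73 ± 0.11) and Ifngr1 (8.73 ± 0.09) and the mediator Stat2 (8.25 ± 0.20) were the highest, and the induced genes Ifit3 (3.69 ± 0.52), Mx2 (4.49 ± 0.13) and Mx1 (4.89 ± 0.37) the lowest.

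The Hox clusters, which encode position along the body axis, had few members each, and differences between their counts were not tested. In the Hox A cluster 5 of 9 measured genes passed, a share near the 45.5% of all genes: Hoxa7 (9.11, 8.96 and 8.96), Hoxa11 (8.59, 8.30 and 8.47), Hoxa9 (8.41 ± 0.06), Hoxa10 (7.49 ± 0.03) and Hoxa5 (7.12 ± 0.19). In the Hox C cluster 5 of 9 were above, led by Hoxc10 (8.89, 8.78 and 8.90) and Hoxc6 (7.79 ± 0.11), with Hoxc13 (7.61 ± 0.24), Hoxc12 (7.22 ± 0.22) and Hoxc9 (7.03 ± 0.15). In the Hox B cluster only Hoxb3 of 10 was above (7.41, 7.56 and 7.50). None of 8 Hox D genes was, and the highest was Hoxd9 (6.57 ± 0.12). Of all 36 measured Hox genes, Hoxa7 alone exceeded the higher limit on all 3 arrays. Among 29 further factors of limb and axial position, 15 were above background (51.7%, near the 45.5% of all genes). The highest were Meis2 (9.44 ± 0.14) and Pbx2 (9.15 ± 0.10), partners of Hox proteins, Prrx1, of limb mesenchyme (8.99 ± 0.05), En1 (8.93 ± 0.13) and Tbx15 (8.39 ± 0.07). Tbx5, of the forelimb, was among the lowest (5.05 ± 0.11), and the hindlimb factors Pitx1 (6.47 ± 0.13) and Tbx4 (6.35 ± 0.05), chosen after their values were seen, were not above background.

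**Figure D4:**
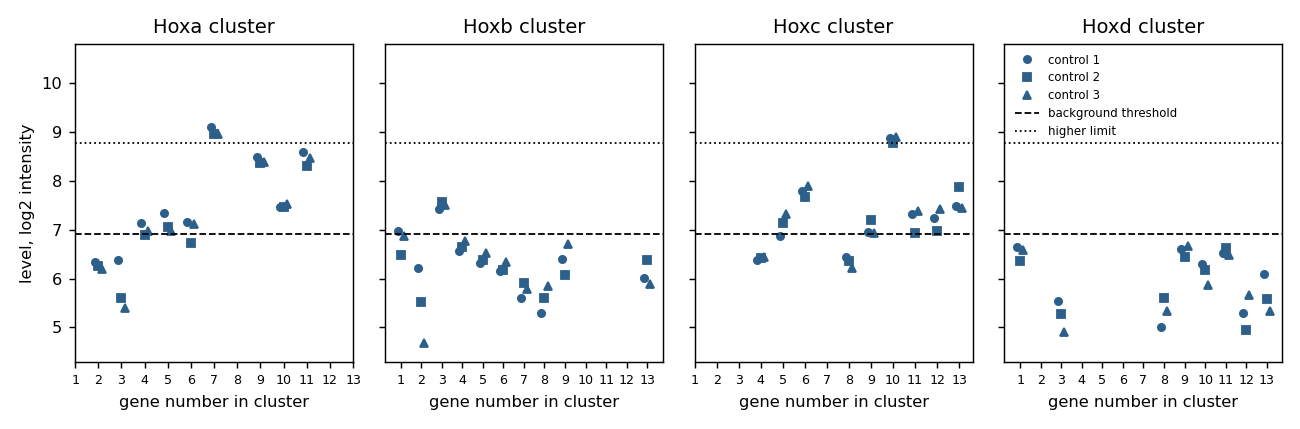
Level (y axis, log2 intensity) of each measured Hox gene on the 3 control arrays (circle, square and triangle), by cluster and gene number along it, with both limits as horizontal lines. Hoxa7 lies above the higher limit on all 3 arrays, and no gene of the Hoxd cluster passes the background threshold on all 3.

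Imprinted genes, which are used from 1 parental copy, passed in 10 of 22 cases, the same 45.5% as among all genes. Peg10 (11.18 ± 0.12), Peg3 (10.55 ± 0.05), Impact (9.82 ± 0.07) and the noncoding RNA H19 (9.59, 9.71 and 9.59) were strong. H19 and Igf2 lie side by side and share enhancers, and Igf2 was not above background. Grb10 (5.31 ± 0.09), Kcnq1ot1 (5.21 ± 0.42) and Rian (4.05 ± 0.27) were the lowest. Xist, the RNA that coats the inactive X chromosome, read 12.36, 12.44 and 12.42, with all 12 probe sets above. The Y-linked genes Eif2s3y (2.82, 3.03 and 2.48), Uty (2.98 ± 0.19), Usp9y (3.12 ± 0.06) and Kdm5d (4.16 ± 0.13) were not above background. Their X-linked counterparts Eif2s3x (11.99 ± 0.03), Kdm6a (8.69 ± 0.01) and Kdm5c (9.49 ± 0.03) and the helicase Ddx3x (10.67 ± 0.05) were above background.

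Chromatin modifiers passed in 39 of 47 cases. Hdac3 (10.88 ± 0.02), Cbx5 (10.88 ± 0.03), Sirt6 (10.50 ± 0.02), Chd4 (10.32 ± 0.14) and Cbx3 (10.26 ± 0.02) were the highest, and Hdac9 (5.37 ± 0.12), Dnmt3l (5.53 ± 0.05) and Smarca2 (5.67 ± 0.07) the lowest. Of 45 nuclear receptors 21 passed (46.7%, near the 45.5% of all genes). The 2 strong ones were the circadian repressor Nr1d1 (10.15 ± 0.08) and Pparg, the regulator of fat cells (9.62, 9.78 and 9.57). Ppard (9.51 ± 0.08), Rarg (9.45 ± 0.03) and Thra, a thyroid hormone receptor (9.33 ± 0.12), followed. Of 17 clock genes 11 passed, led by Nr1d1, Clock (9.71 ± 0.04) and Bhlhe40 (9.46 ± 0.13), with Npas2 (6.94 ± 0.06), Cry2 (6.89 ± 0.05), Per2 (6.75 ± 0.05), Per3 (6.72 ± 0.23), Ciart (6.64 ± 0.17) and Hlf (5.50 ± 0.10) not above.

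Markers of haematopoietic, endothelial, epithelial, neural, gut organ and germ cells were mostly not above background. Of 16 haematopoietic markers Cd68 (8.31 ± 0.12) and Cd14 (7.57 ± 0.24) passed the threshold and none the higher limit, and the pan-leukocyte marker Ptprc was the lowest (3.91 ± 0.08). Of 15 endothelial markers only Egfl7 passed (7.17 ± 0.13), with Pecam1 at 5.65 ± 0.31, Cdh5 at 5.69 ± 0.13 and Kdr at 4.82 ± 0.18. Of 14 epithelial markers the keratins Krt14, Krt19 and Krt8 passed, while Cdh1 (6.30 ± 0.08) and Epcam (5.79 ± 0.11) did not. Of 22 neuronal and glial markers Olig2 (7.61 ± 0.06), Olig1 (7.51 ± 0.17), Map2 (7.36 ± 0.06) and Sox10 (7.14 ± 0.06) passed, and none exceeded the higher limit. The neuronal Snap25 (4.42 ± 0.11) and the neural stem cell factor Sox2 (4.44 ± 0.17) were far below. Of 20 liver, pancreas and gut markers only Cela1 passed (7.38 ± 0.21), and the lowest was the intestinal enzyme Sis (3.00, 3.09 and 3.07). Of 23 germ cell and pluripotency markers Klf4 (9.25 ± 0.03), a factor also used in many somatic cells, and Tnp2 (7.67 ± 0.28) passed. Klf4 also exceeded the higher limit.

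Markers of other mesenchymal cells were above background at shares of 36.8% to 53.3% per list, around the 45.5% of all genes. Of 19 tendon and fibroblast markers 7 passed, among them S100a4, the surface antigen Ly6a (12.18, 12.18 and 12.11), Pdgfrb and the tendon factor Scx (9.02 ± 0.05). Egr1 lay lower (8.32 ± 0.09), and Fap (3.74 ± 0.17), Dpp4 (3.86 ± 0.33) and Pdgfra (6.45 ± 0.16), the receptor of interstitial fibroblasts, were not above. Of 16 adipocyte markers 7 passed, with Plin2, the coat of lipid droplets in many cells (12.22 ± 0.04), and Pparg strong. Plin1, which coats the lipid droplets of fat cells, was weak (7.08, 6.97 and 7.35), and Adipoq (4.21 ± 0.13), Fabp4 (4.34 ± 0.17) and Lep (4.51 ± 0.08), secreted or abundant products of fat cells, were not above. Of 15 bone and cartilage markers 8 passed, with Spp1, Runx1 (9.79 ± 0.07) and Sox9, the cartilage factor (9.61, 9.71 and 9.82), strong. Sp7 (7.77 ± 0.11) and Col2a1 (7.63 ± 0.09) lay between both limits, and Ibsp (4.46 ± 0.21) and Dmp1 (5.20 ± 0.07), proteins of mineralised bone, were not above. Of 19 smooth muscle and heart markers 7 passed, among them Acta2, Des, Smtn (9.18 ± 0.06), Gata4 (8.73 ± 0.05), Tagln (8.02 ± 0.12) and Nkx2-5 (7.99 ± 0.02). The defining smooth muscle genes Myh11 and Myocd (5.72 ± 0.11) were not above background. The levels of the cardiac factors Gata4 and Nkx2-5, like those of Krt14 and Olig2, are ones that genes of the silent families also reached.

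Promoter letters, which played no part in setting the levels, were compared between classes. RefSeq promoter windows on assembly GRCm38.p6, from 250 bases before to 50 bases after the first listed start, were matched to 15585 of the 20005 genes. A window was called CG-rich when CG dinucleotides reached at least 0.6 of the number given by its C and G content. CG-rich windows made up 82.5% of the strong class, 82.3% of the moderate, 75.5% of the weak and 30.2% of the genes not above background. Measured genes together gave 53.1%, and the 27025 listed windows 36.5%. Between the lowest and the highest decile of level, the median number of CG dinucleotides went from 2 to 24. The steepest part of the change lay between the 4th and the 6th decile (9 and 19), around the background threshold, and the 3 highest deciles differed little (23, 24 and 24). The letters TATAAA, searched as such between 40 and 15 bases before the start, were found in 1.48% of strong, 0.68% of moderate, 1.24% of weak genes and 3.72% of genes not above background, and in 2.51% of all. On the opposite strand the same search gave 0.55% of all measured genes.

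Within the lists, CG-rich windows were found for 31 of 33 mitosis genes, 25 of 27 translation factors and 40 of 44 chromatin modifiers, but for 4 of 32 sarcomere genes, 3 of 21 S100 proteins and annexins and 4 of 31 chemokines and cytokines. S100 proteins and annexins thus had a high median level with few CG-rich windows. The reverse was seen for Wnt ligands, receptors and antagonists, with 27 of 33 windows CG-rich at a median level of 6.54. TATAAA was found in 4 of 32 sarcomere genes, 4 of 21 S100 proteins and annexins, 5 of 13 keratins and 7 of 31 chemokines and cytokines. A C followed by 4 pyrimidines at the listed start, the letters of the tract that marks transcripts of the protein synthesis machinery, was found in 9 of 45 cytosolic ribosomal proteins and in 2.30% of all measured genes. A match describes letters in this window and not a working site.

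The windows from 90 bases before to 10 bases after the start show examples, with every CG in capitals for 3 strong genes and TATAAA in capitals for 3 others. Tuba1b (chr15:98934381-98934480, minus strand) has 10 CG, Actg1 (chr11:120348486-120348585, minus strand) has 17 and Pcna (chr2:132253171-132253270, minus strand) has 11. Myh4 (chr11:67237722-67237821, plus strand) and Myh3 (chr11:67078210-67078309, plus strand), both not above background, carry TATAAA with 1 and 4 CG in the whole window of 300 bases. Vim (chr2:13574221-13574320, plus strand), the fourth highest gene of all, carries TATAAA too, with 11 CG in its whole window, so these letters do not sort single genes by level. All 6 were chosen after their levels were seen.
Tuba1b: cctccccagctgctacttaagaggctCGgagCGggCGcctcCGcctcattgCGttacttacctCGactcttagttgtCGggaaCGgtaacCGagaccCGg
Actg1: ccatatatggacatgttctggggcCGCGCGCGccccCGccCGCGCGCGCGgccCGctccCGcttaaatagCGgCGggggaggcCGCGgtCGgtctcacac
Pcna: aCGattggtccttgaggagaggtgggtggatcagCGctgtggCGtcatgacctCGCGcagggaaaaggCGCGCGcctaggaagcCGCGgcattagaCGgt
Myh4: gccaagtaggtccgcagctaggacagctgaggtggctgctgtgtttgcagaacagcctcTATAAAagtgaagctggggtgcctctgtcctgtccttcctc
Myh3: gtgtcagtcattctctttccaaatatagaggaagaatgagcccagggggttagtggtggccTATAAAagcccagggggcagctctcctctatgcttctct
Vim: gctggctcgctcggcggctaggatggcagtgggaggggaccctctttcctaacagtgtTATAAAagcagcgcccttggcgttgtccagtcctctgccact

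**Figure D5:**
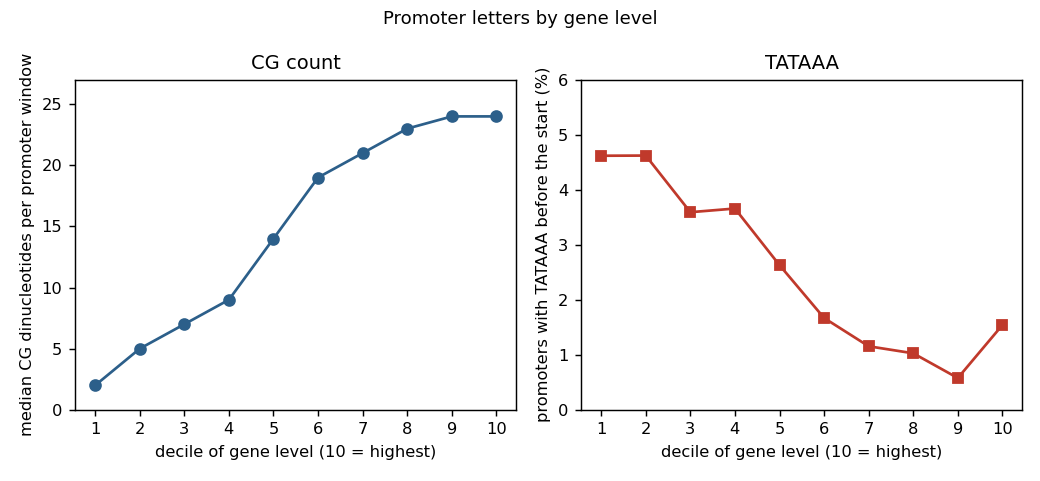
Median number of CG dinucleotides per promoter window (left) and percent of windows with TATAAA before the start (right) by decile of gene level on the control arrays (x axis, 10 is the highest). The CG count goes from 2 in the lowest decile to 24 in the highest, and the TATAAA share from 4.62% in the lowest to 1.54% in the highest.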

How the data were processed

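The authors deposited a table of linear intensity for 1195555 probe sets on 9 exon arrays. Per the submitters' processing notes, the values were made with RMA in Affymetrix Expression Console on genome build mm9. Versions and options: not given in the sources used here. All 3 control columns were put on the log2 scale, with no further scaling. Array number, not depth, limits precision. The platform annotation gave 1 gene symbol to 316997 probe sets, several to 6571, and did not list 871987. Of 22264 symbols 17988 were current in a RefSeq table, 4213 were updated and 63 kept. A gene's level was the median of its probe sets, without a signal filter. RefSeq promoters were searched for exact letters. No groups were compared and no test was run. The steps were checked on simulated data. Python 3.11.15, pandas 2.3.3, numpy 2.4.6 and matplotlib 3.10.9 were used.

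The gene lists, form pairs and rules were chosen with earlier results of these data known. Genes named in the text are the 25 highest, the 10 of widest range, the 5 highest and 3 lowest of each list, all members of short lists or short sides of a list, both forms of each pair, and Celf1 and Mbnl1. Named beyond this rule, after their values were seen, are Cacna1s, Nkx2-5, Igf2, Mef2c, Msc, Myf6, Myh3, Mymk, Myocd, Myog, Pax7, Pitx1, Ryr1, Tap1, Tap2, Tbx4, Tnnt3 and Ttn. Alternatives changed the gene summary, the threshold, the minimum of probe sets, the scaling, the symbols and the arrays included.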

Additional observations from a re-analysis of the deposited data

How the results depend on the processing

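No paired analysis was possible because no groups were compared. The number of genes above background, 9098, depends first on the limit: it was 4860 with the 99th percentile of the receptor probe sets and 3592 with the other silent families, and 8492 to 12831 under the other alternatives that keep all 3 arrays. Members of the lists above background numbered 571 of 1643 with the other silent families, in place of 971, 1228 of 1643 with the 75th percentile of the probe sets, and 1308 of 1310 with the median polish of probe sets past a signal filter. Of the named genes, 519 of 625, 533 of 625 and 352 of 469 kept their side under these. The signal filter keeps probe sets from the 75th percentile of all probe sets upward, which lies beyond the background threshold. Nearly every gene left by it therefore passes, 12831 of 12842. The size of the strong class follows from its definition as a share of genes, 2001 of 20005 and 1285 of 12842 with the median polish, and 1186 genes were shared. The median SD between arrays, 0.0904, became 0.0526 with the mean of the probe sets and 0.0212 with the median polish. The share of CG-rich promoters among genes above background, 79.0%, became 72.2% with the 75th percentile of the probe sets, 70.2% with the median polish, 75.2% with the 90th and 82.2% with the 99th percentile of the receptor probe sets, and 82.2% with the other silent families. Leaving out 1 array at a time gave 9208 to 9334 genes above background, 979 to 992 listed members, a median SD of 0.0675 to 0.0765 and 78.6% to 78.7% CG-rich promoters, with 1964 to 1980 genes shared with the strong class of 2001 and 21 pairs in which the widely used form read higher. Without array 1, 2 or 3, 6, 10 and 1 of the 625 named genes moved to above background and none was lost. The rule asks for every array used, so leaving 1 out can only add genes to those above background. The order turned in 3 pairs. Hk1 minus Hk2 was -0.027 and Fbp1 minus Fbp2, neither above background, was -0.039 with the mean of the probe sets, and Pfkp minus Pfkm was 0.082 with the 75th percentile and 0.066 with the median polish. The cause of these changes of order was not tested. Repeating the quantile normalisation or centring the arrays on their medians left each of the 625 named genes on its side. Each call compares a gene with a threshold from the same array, so neither step could do much to change it.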
